A study of Mus musculus with 15 samples.

Results

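The BCL2 family decides whether a stressed cell dies through its mitochondria, and 10 of its genes were followed here across mouse oligodendrocyte precursors and oligodendrocytes with and without SRF. They were chosen by name: Bcl2, Bcl2l1, Bcl2l2, Mcl1, Bak1, Bcl2l11, Bid, Bad, Bmf and Bnip3. All 10 were found among the 45706 genes of the tables, and all 10 passed the filter on low counts in both stages. None of the 10 differed between SRF-KO and control libraries at an adjusted p below 0.05 in either stage. The smallest p-values belonged to a pair of survival genes in precursors, with Mcl1 lower and Bcl2l1 higher in the SRF-KO libraries, both at unadjusted p only.

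Family members share short stretches called BH domains and act on the outer mitochondrial membrane. BCL2, BCL-XL (Bcl2l1), BCL-W (Bcl2l2) and MCL1 hold back the effectors BAK and BAX, which otherwise open that membrane and let cytochrome c out to start the caspases. The BH3-only proteins BIM (Bcl2l11), BID, BAD and BMF bind the survival proteins and release the effectors, while BNIP3 is better known for marking mitochondria for removal in low oxygen. MCL1 is made and degraded quickly, so its protein level also depends on translation and breakdown, which RNA does not show. Many newly formed oligodendrocytes die by apoptosis during normal development.

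SRF, or serum response factor, binds a DNA element called the CArG box, and in other cells both Bcl2 and Mcl1 have been described as its targets. All cells, controls included, were primary cultures from brains of SRF-floxed/floxed mice, purified by immunopanning (capture on antibody-coated dishes). Oligodendrocyte precursor cells (OPCs) received AAV DJ carrying eGFP-Cre (SRF-KO OPC, 3 libraries) or eGFP with a deleted Cre (control OPC, 4 libraries), both from the CMV promoter, on culture day 3, and were frozen 48 hours later. For the oligodendrocytes (OLs), a lentivirus with Cre-IRES-GFP (SRF-KO OL, 4 libraries) or GFP (control OL, 4 libraries) was added on day 6, and plates were frozen on day 3 of differentiation. Age and sex of the mice are not given in the labels, no group received Cre in cells without floxed Srf, and the treatment tag of the SRF-KO OLs ends in the word control. The labels do not say whether replicates came from separate animals or cultures, so p-values measure the spread between these libraries, which may be technical.

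Expected counts summed to between 8964310 and 16026511 per library in control OPCs and between 9074812 and 15125229 in SRF-KO OPCs. The OL sums lay between 7188698 and 13139258 for controls, and between 4303739 and 11721394 for SRF-KO. Srf fell from 7.86 ± 1.70 (SD, n = 4) to 0.210 ± 0.0127 (SD, n = 3) normalised CPM (counts relative to the library total on a fixed scale) in OPCs, with 88 to 106 counts in each control library and 2 or 3 in each SRF-KO library. In OLs it fell from 8.28 ± 0.97 to 3.03 ± 0.96 CPM (SD, n = 4 each), a smaller relative fall. OL reads were counted over whole gene bodies and OPC reads over spliced transcripts, as given below. How much Srf RNA remained therefore cannot be compared between the stages. The edgeR log2 differences were -5.16 (SE 0.40, adjusted p 0.000569) and -1.45 (SE 0.22, adjusted p 0.0224), and the OL call was lost in 6 of 8 fits that left out 1 library, with adjusted p from 0.00246 to 0.104 over the 8. In OLs, reads of the unstranded libraries are also assigned to Gm26904, which is annotated on the other strand over all of Srf and had 11.2 to 17.6 CPM. On the first principal component, SRF-KO OPC replicate 2 lay at 47.6 against -23.0 to 6.01 for the other OPC libraries. SRF-KO OL replicate 4 lay at 80.5 against -18.8 to 0.45 for the other OLs. That OL library also had the highest share of counts from mitochondrial genes, 14.2% against 9.08% to 11.6% in the other OLs, and the second lowest total. The part of these in the values that turn on it was not tested. Where a gene's log2 difference within a stage turns in sign or moves by over 1.5 times without the library of that stage that stands apart, the value without it is given beside it.

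The levels below are CPM scaled by TMM factors set separately within each stage, and the tests are edgeR quasi-likelihood F-tests within a stage. Called means an adjusted p below 0.05. In the OPC comparison 9 of 13271 genes were called, 0.0678% of those tested, and 0 of the 10 family genes. At an unadjusted p below 0.05 stood 2 of the 10, Mcl1 and Bcl2l1, against 11.9% of all genes tested. The median log2 difference of the 10 was -0.03, with 5 above 0, beside -0.0013 for all genes. DESeq2 and limma also called 0 of the 10. At an unadjusted p below 0.05 stood Mcl1 by DESeq2, and Mcl1 and Bmf (limma p 0.0281), not Bcl2l1, by limma on log2(TPM + 1).

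**Figure D1:**
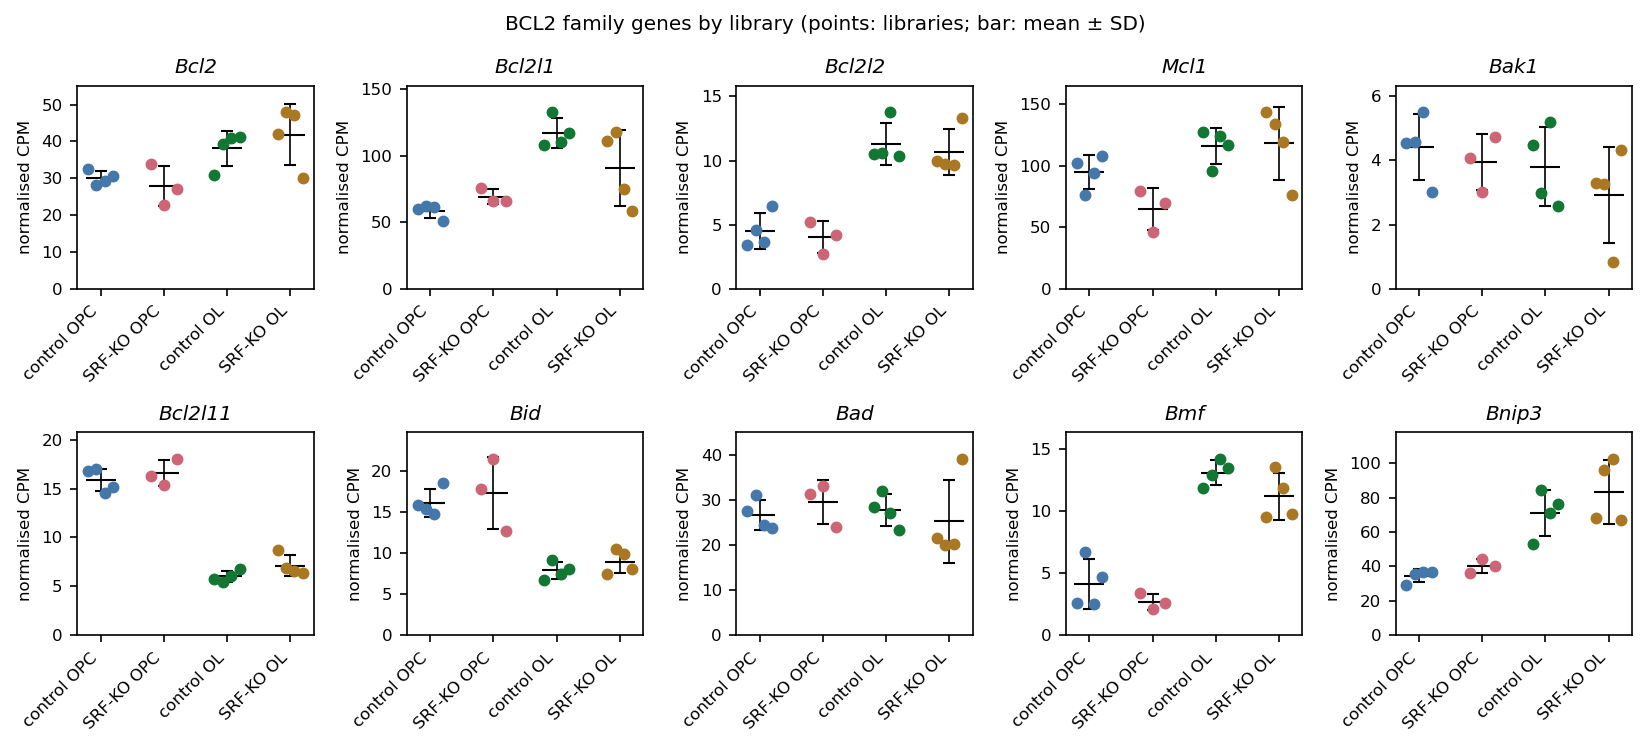
Level of each gene in normalised CPM (vertical axis from 0, a scale of its own per gene) in control and SRF-KO OPC and OL libraries; points are libraries and bars the mean ± SD. Mcl1 ran from 76.0 to 108 CPM in control OPCs and from 46.1 to 79.3 in SRF-KO OPCs, and Bcl2l1 is the one gene of the 10 whose OPC groups do not overlap.

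Mcl1 (ENSMUSG00000038612, GRCm38 chromosome 3, 95658788 to 95663176, plus strand) had 102, 76.0, 94.0 and 108 CPM in control OPC replicates 1 to 4. In SRF-KO OPCs it had 79.3, 46.1 and 69.3 CPM. The groups overlapped only in that SRF-KO replicate 1 lay just above control replicate 2, and the SRF-KO mean was 68.3% of the control mean. The log2 difference was -0.55 (SE 0.18, 95% interval -0.94 to -0.17), with an edgeR p of 0.00866 and an adjusted p of 0.279. Without SRF-KO OPC replicate 2, the lowest library and the one that stands apart, the difference was -0.35 (edgeR p 0.0263, adjusted p 0.512). Over all 12 alternative fits, adjusted p ran from 0.0586, in edgeR without the low-count filter, to 0.512.

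Because SRF acts through the CArG box, promoter windows of the 10 genes were searched for it. The RefSeq windows on GRCm38.p6 hold 300 bases, 250 before the annotated start and 50 after, and 16 windows covered all 10 genes. The box reads the same on both strands, so both are covered. None of the 16 held an exact box, and an exact box occurs in 1.63% of 32851 windows over all genes. A match with 1 letter off occurred in 3 of the 16, 1 each for Mcl1, Bcl2l2 and Bmf, and in 21.1% of all windows, which also counts exact matches. The Srf window held 2 exact boxes and another match with 1 letter off. The stretches around these matches are printed below, with the box or near-box in capitals, to show how close each gene comes to the element as it stands in Srf itself. They are given 5′ to 3′ on the strand of the gene.
Srf, chr17:46556162-46556274, minus strand: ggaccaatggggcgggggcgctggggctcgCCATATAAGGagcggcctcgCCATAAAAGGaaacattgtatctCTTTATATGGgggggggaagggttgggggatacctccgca
Mcl1, chr3:95658471-95658740, plus strand: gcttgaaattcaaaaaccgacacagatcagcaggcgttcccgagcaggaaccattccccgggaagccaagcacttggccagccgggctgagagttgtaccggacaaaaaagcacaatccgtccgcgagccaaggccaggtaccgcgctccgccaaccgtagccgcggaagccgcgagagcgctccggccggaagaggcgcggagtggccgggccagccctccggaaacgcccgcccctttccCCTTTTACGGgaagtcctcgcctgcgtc
Bcl2l2, chr14:54883235-54883304, plus strand: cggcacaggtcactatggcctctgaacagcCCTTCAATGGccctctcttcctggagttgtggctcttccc
Bmf, chr2:118549766-118549835, minus strand: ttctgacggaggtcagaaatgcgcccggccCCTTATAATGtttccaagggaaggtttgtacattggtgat
The Mcl1 near-box begins 8 bases before the RefSeq start, the Bcl2l2 one 160 before and the printed Bmf one 119 before. The Bmf window held another near-box 38 bases after the start. For Mcl1 and Bcl2l2 the RefSeq start differs from the GENCODE start printed with the gene. In Srf the exact boxes begin 82 and 62 bases before the start. A match is a string of letters and not a shown binding site, and the windows say nothing of sites outside them.

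Bcl2l1 (ENSMUSG00000007659, chromosome 2, 152780668 to 152831728, minus strand) encodes BCL-XL, the survival protein that, like MCL1, restrains BAK. Control OPCs had 60.0, 62.2, 61.5 and 50.9 CPM. SRF-KO OPCs had 76.0, 66.2 and 65.6 CPM. Every SRF-KO library lay above every control library, which 12.2% of all genes tested did in one direction or the other and 5.96% did upwards. The log2 difference was 0.24 (SE 0.10, 95% interval 0.010 to 0.47; edgeR p 0.0420, adjusted p 0.406), and 0.17 to 0.28 with each library left out in turn. Its unadjusted p was above 0.05 with DESeq2 (0.0568), without the low-count filter (0.0513), with limma (0.272) and with the replicate number as a block (0.154), and it reached 0.181 with a library left out.

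With Mcl1 lower and Bcl2l1 higher, the ratio of their counts within a library, which no scaling between libraries can move, was taken after their values were seen. It was 1.70, 1.22, 1.53 and 2.12 in control OPCs. It was 1.04, 0.696 and 1.06 in SRF-KO OPCs. Each SRF-KO OPC library thus had a lower Mcl1 count relative to Bcl2l1 than any control, with means of 0.932 ± 0.20 (SD, n = 3) and 1.64 ± 0.37 (SD, n = 4). In OLs the ratio was 1.18, 0.719, 1.12 and 1.00 in controls and 1.29, 1.13, 1.59 and 1.30 in SRF-KO libraries, and there the groups overlapped. As the pair was chosen for its difference, no test was made.

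The other survival genes showed smaller differences in OPCs. Bcl2 (ENSMUSG00000057329, chromosome 1, 106538178 to 106714274, minus strand), the founding member, had 32.6, 28.2, 29.4 and 30.6 CPM in controls and 33.8, 22.9 and 27.0 in SRF-KO OPCs. Bcl2l2 (ENSMUSG00000089682, chromosome 14, 54883377 to 54888234, plus strand), which encodes BCL-W, had 3.43, 4.55, 3.62 and 6.44 CPM in controls and 5.18, 2.75 and 4.18 in SRF-KO OPCs. The groups of both overlapped, with SRF-KO replicate 2 the lowest of all OPC libraries for each, and the log2 differences were -0.12 (edgeR adjusted p 0.762) and -0.18 (adjusted p 0.862). Without that library they turned to 0.0086 and 0.052.

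The effector Bak1 (ENSMUSG00000057789, chromosome 17, 27019810 to 27029009, minus strand), whose product forms the pore itself, had 4.55, 4.55, 5.49 and 3.00 CPM in control OPCs and 4.08, 3.01 and 4.72 in SRF-KO OPCs. All SRF-KO values fell within the control range, with a log2 difference of -0.17 (edgeR adjusted p 0.856), and 0.0056 without SRF-KO replicate 2. Bak1 lies wholly inside Ggnbp1 on the other strand. The libraries are unstranded, so reads of the overlap cannot be told apart; Ggnbp1 itself had 0.66 to 2.79 CPM in OPCs and 2.16 to 5.65 in OLs.

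Of the 4 BH3-only genes, none stood at an unadjusted p below 0.05 in OPCs. Bcl2l11 (ENSMUSG00000027381, chromosome 2, 128126038 to 128162547, plus strand) encodes BIM, which binds all the main survival proteins. It had 14.6 to 17.0 CPM in controls and 15.4 to 18.0 in SRF-KO OPCs, a log2 difference of 0.06 (edgeR adjusted p 0.901), and 0.11 without SRF-KO replicate 2. Bid (ENSMUSG00000004446, chromosome 6, 120891930 to 120916853, minus strand), whose product is cut by caspase-8 and so links death receptors to mitochondria, had 14.8 to 18.5 and 12.7 to 21.4 CPM. Both pairs of ranges overlapped, and the Bid difference was 0.11 (edgeR adjusted p 0.850), turning to -0.084 without SRF-KO replicate 2, its highest library. Bad (ENSMUSG00000024959, chromosome 19, 6941861 to 6951899, plus strand), whose product growth factor signalling keeps inactive by phosphorylation, had 23.8 to 31.1 CPM in controls and 24.0 to 33.2 in SRF-KO OPCs (log2 difference 0.14, edgeR adjusted p 0.730), and the difference was 0.045 without SRF-KO replicate 2.

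Bmf (ENSMUSG00000040093, chromosome 2, 118528757 to 118549687, minus strand), a BH3-only protein tied to the cytoskeleton and released when cells lose their anchorage, had the widest interval of the 10 in OPCs. Its controls had 2.61, 6.70, 2.52 and 4.72 CPM and its SRF-KO libraries 3.42, 2.16 and 2.57. A pair of control libraries lay above the rest while the other controls lay among the SRF-KO values, and the log2 difference was -0.63 (SE 0.40, 95% interval -1.52 to 0.25; edgeR adjusted p 0.553). Bnip3 (ENSMUSG00000078566, chromosome 7, 138890836 to 138909519, minus strand) had 29.4, 35.5, 36.9 and 36.9 CPM in controls and 36.0, 44.3 and 40.4 in SRF-KO OPCs. Its log2 difference was 0.22 (SE 0.12, edgeR p 0.101, adjusted p 0.501), and 0.14 without SRF-KO replicate 2. Only SRF-KO replicate 1 fell within the control range.

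**Figure D2:**
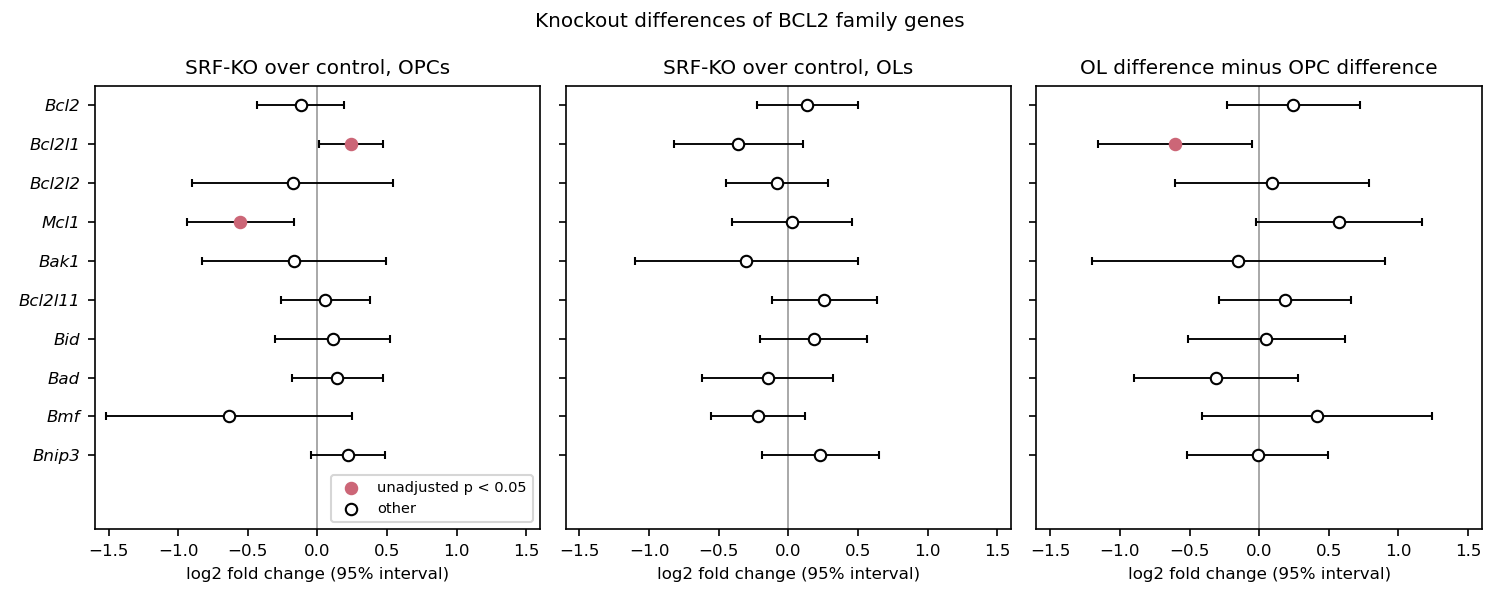
edgeR log2 differences (horizontal axis) with 95% intervals for the 10 genes: SRF-KO over control in OPCs, in OLs, and the OL difference minus the OPC difference. Filled points mark an unadjusted p below 0.05, which are Mcl1 (-0.55) and Bcl2l1 (0.24) in OPCs and Bcl2l1 (-0.61) in the difference between stages.

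In OLs, 45 of 15193 genes were called, 0.296% of those tested, and 0 of the 10 family genes. At an unadjusted p below 0.05 stood 0 of the 10 by edgeR and DESeq2 and 1 by limma on log2(TPM + 1), against 11.6% of all genes by edgeR. DESeq2 also called 0 of the 10, with 1.8% of all genes called. None of the 10 had OL groups that did not overlap, while 8.06% of all genes did. The median log2 difference of the 10 was -0.03, with 5 above 0, beside 0.02 for all genes. Scaling by library totals instead of TMM moved the median of all OL genes to 0.24, so the OL differences given here are relative to the TMM scale.

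The listed lengths show that the OL tables count reads over whole gene bodies. This was checked on 8995 intron-containing genes with a single transcript: the OPC files gave the spliced length for 89.8% of them, and the OL files gave the full genomic span for 90.0%. For the family this matters unequally, since exons make up 5.20% of Bcl2 and 91.8% of Bcl2l2. Comparisons within a stage use 1 way of counting.

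Mcl1 had 128, 95.3, 124 and 117 CPM in control OLs. In SRF-KO OLs it had 143, 134, 119 and 75.8 CPM. Replicate 4, the library that stands apart, was below every control while SRF-KO replicates 1 and 2 were above every control, and the log2 difference was 0.03 (SE 0.20, 95% interval -0.40 to 0.46; edgeR p 0.888, adjusted p 0.979). Without replicate 4 it was 0.17 (adjusted p 0.464), and over the 13 alternative fits adjusted p ran from 0.464 to 0.998.

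Bcl2l1 had 108, 133, 110 and 117 CPM in control OLs and 111, 118, 75.1 and 58.5 in SRF-KO OLs. SRF-KO replicates 1 and 2 lay within the control range and replicates 3 and 4 below it. The log2 difference was -0.36 (SE 0.21, 95% interval -0.82 to 0.10; edgeR p 0.116, adjusted p 0.568), and -0.22 without replicate 4. Bcl2 had 31.0, 39.4, 40.9 and 41.1 CPM in controls and 42.1, 47.9, 47.2 and 30.1 in SRF-KO OLs. Here 3 SRF-KO libraries lay above all controls and replicate 4 below them, with a log2 difference of 0.14 (edgeR adjusted p 0.824). Without replicate 4 it was 0.24 (edgeR p 0.0721, adjusted p 0.274), and over the 13 alternatives adjusted p ran from 0.274 to 0.991.

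Bcl2l2 had 10.5, 10.6, 13.8 and 10.3 CPM in control OLs and 9.98, 9.72, 9.65 and 13.4 in SRF-KO OLs. In each group 1 library stood above the other 3, control replicate 3 and SRF-KO replicate 4, and the log2 difference was -0.08 (edgeR adjusted p 0.909), and -0.21 without SRF-KO replicate 4. Bcl2l2 shares 4794 of its 4858 bases with the gene model Gm20521 on the same strand. In OLs that model had 5.42 to 11.9 CPM and in OPCs at most 0.22, so the Bcl2l2 count in OLs depends on how reads were shared between them.

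Bak1 had 4.46, 2.98, 5.19 and 2.58 CPM in control OLs and 3.30, 3.27, 0.82 and 4.33 in SRF-KO OLs. SRF-KO replicate 3, with 4 counts, was the lowest, and the log2 difference was -0.30 (SE 0.37, edgeR adjusted p 0.825), and -0.46 without SRF-KO replicate 4.

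Among the BH3-only genes, Bad turned most on 1 library. It had 28.5, 31.9, 27.0 and 23.4 CPM in control OLs and 21.6, 20.0, 20.3 and 39.1 in SRF-KO OLs. SRF-KO replicates 1 to 3 were below every control and replicate 4 was above every control. With all libraries the log2 difference was -0.15 (SE 0.21, 95% interval -0.62 to 0.32; edgeR p 0.510, adjusted p 0.859). Without replicate 4 it was -0.44 (edgeR p 0.00245, adjusted p 0.0525), the lowest adjusted p of the 250 alternative fits of these 10 genes within a stage, and that fit called 4.12% of all genes. Over the 13 alternatives for Bad in OLs, adjusted p ran from 0.0525 to 0.974, and the sign turned with library totals (0.075) and with limma on TPM (0.23). Bad overlaps Gpr137 on the other strand by 620 bases; Gpr137 had 41.2, 34.4, 32.2 and 28.0 CPM in control OLs and 28.5, 27.6, 22.6 and 33.7 in SRF-KO OLs. Its part in the Bad values was not tested.

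The remaining BH3-only genes had overlapping OL groups. Bcl2l11 had 5.44 to 6.76 CPM in controls and 8.71, 6.85, 6.57 and 6.40 in SRF-KO OLs, a log2 difference of 0.26 (edgeR adjusted p 0.625). Bid had 6.78 to 9.21 and 7.44 to 10.5 CPM (0.18, adjusted p 0.758). For Bid, 913 bases overlap Bcl2l13, a mitochondrial relative on the other strand with 34.8 to 74.8 CPM in OLs. Bmf had 11.9 to 14.2 CPM in controls and 9.55, 13.5, 11.9 and 9.78 in SRF-KO OLs (-0.22, edgeR adjusted p 0.650). Bnip3 had 53.0, 84.5, 70.9 and 76.2 CPM in controls and 68.0, 95.8, 102 and 67.2 in SRF-KO OLs (0.23, adjusted p 0.715), where SRF-KO replicates 2 and 3 exceeded all controls.

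**Figure D3:**
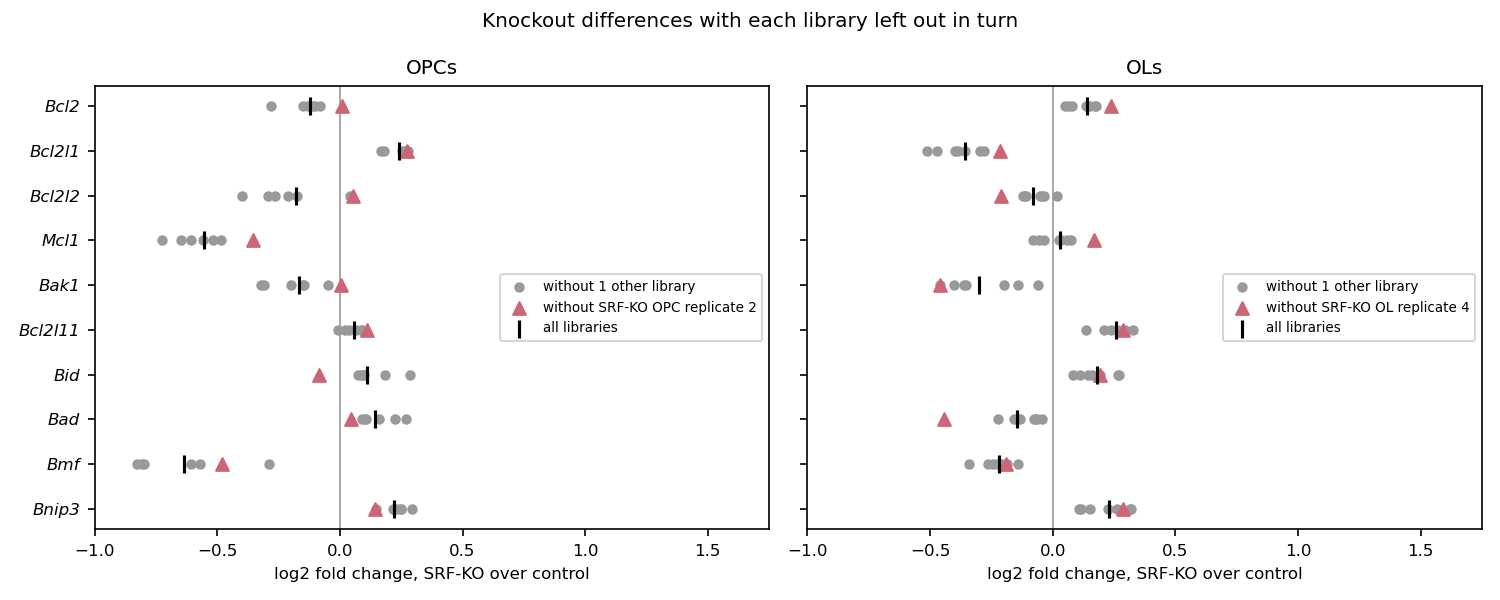
SRF-KO over control log2 differences (horizontal axis) of the 10 genes with all libraries (bars), without the library that stands apart in each stage (triangles) and without each other library in turn (grey points). Mcl1 in OPCs stays between -0.72 and -0.35, and Bad in OLs moves from -0.15 to -0.44 without SRF-KO OL replicate 4.

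Whether the SRF-KO difference itself differed between the stages was tested as an interaction over all 15 libraries. It called 18 of 16135 genes, 0.112% of those tested, and 0 of the 10 family genes by edgeR, with 1 of the 10 at an unadjusted p below 0.05 against 9.25% of all genes. DESeq2 also called 0 of the 10. That gene was Bcl2l1, with an OL difference lower than the OPC difference by 0.61 on the log2 scale (-0.61, SE 0.26, 95% interval -1.16 to -0.055; edgeR p 0.0331, adjusted p 0.476). For Mcl1 the difference between stages was 0.57 (SE 0.28, 95% interval -0.024 to 1.17; edgeR p 0.0589, adjusted p 0.564). Without SRF-KO OL replicate 4 it was 0.74 (edgeR p 0.00350, adjusted p 0.114). Without SRF-KO OPC replicate 2 it was 0.39 (edgeR p 0.189, adjusted p 0.755), and over its 19 alternatives adjusted p ran from 0.114 to 0.83. The stages also differ in virus, day of infection, share of Srf counts left, counting and cell type markers, which cannot be told apart from stage. The labels give no time after infection for OLs.

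Levels of different genes were set side by side per length, as TPM within control libraries. In control OPCs the order was Bad at 47.0 ± 4.18 TPM (SD, n = 4), Mcl1 at 41.4 ± 6.77, Bcl2l1 at 38.0 and Bnip3 at 32.1, each overlapping its neighbour in range. Bid, at 10.8 TPM, overlapped neither the gene above nor the gene below it. Bcl2 at 6.45, Bcl2l11 at 6.04, Bak1 at 4.04, Bcl2l2 at 1.89 and Bmf at 1.63 TPM followed, and neighbours among these overlapped. Per transcript length, then, OPCs held several times more Mcl1 and Bcl2l1 RNA than Bcl2 RNA.

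In control OLs, per gene-body length, Mcl1 at 60.0 TPM and Bcl2l1 at 52.7 led and overlapped in range, and Bad at 18.0 stood apart from both neighbours. Bnip3 at 8.52, Bcl2 at 5.48 and Bcl2l2 at 5.35 overlapped their neighbours in that run, as did Bak1 at 1.53, Bmf at 1.46, Bid at 1.17 and Bcl2l11 at 0.54 among themselves. Gene-body TPM divides by a length that includes introns, so these values and their order cannot be set against those of OPCs.

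**Figure D4:**
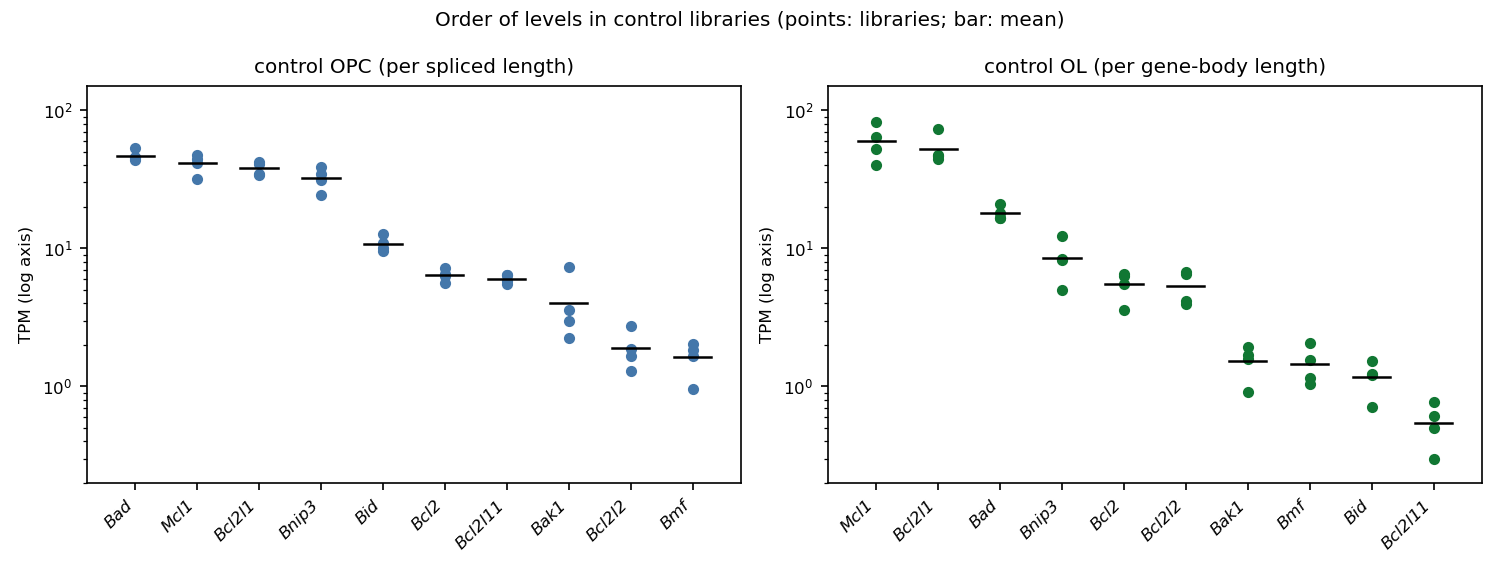
TPM (log axis) of the 10 genes in the 4 control OPC libraries (per spliced length) and the 4 control OL libraries (per gene-body length), in order of their mean; points are libraries and bars means. Bad, Mcl1, Bcl2l1 and Bnip3 form the upper run in OPCs, and Mcl1 and Bcl2l1 stand highest in OLs.

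The stages were compared by CPM in control libraries as a description, since the counting differed. TMM factors were set within each stage, so the CPM of OPCs and OLs share no common TMM scale. Control OLs lay wholly above control OPCs for 4 genes, Bcl2l1 (1.99 times the OPC mean), Bcl2l2 (2.50), Bmf (3.17) and Bnip3 (2.05). They lay wholly below for 2 genes, Bcl2l11 (0.379 times) and Bid (0.490). Bcl2 (1.26), Mcl1 (1.22), Bad (1.04) and Bak1 (0.865) overlapped. Over 12666 genes, 72.8% did not overlap, 25.8% higher and 47.0% lower in OLs. The OL tables count the introns of all these genes, and for Bcl2l2 the reads shared with Gm20521 differ between the stages as given above. Astrocyte markers, 6 in all, summed to 1042 to 1149 CPM in control OPCs and to 16553 to 34091 in control OLs. The part of other cell types in these levels was not tested. In bulk RNA, fewer cells of a type and less RNA per cell cannot be told apart.

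The rest of the death pathway was followed in 6 lists of 77 genes: other BCL2 relatives, apoptosome and caspases, inhibitors of apoptosis, death receptors, BCL2 partners and regulators. In OPCs 64 were tested and edgeR called 0; at an unadjusted p below 0.05 stood 3 higher and 5 lower, against 5.57% and 6.33% of all genes. In OLs 63 were tested and edgeR, DESeq2 and limma called 0; by edgeR 9 stood higher and 1 lower, against 5.84% and 5.73%. The median log2 differences were 0.04 in OPCs and 0.10 in OLs, beside -0.0013 and 0.02 for all genes.

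Pmaip1 (NOXA), a BH3-only gene switched on by p53 whose product binds MCL1 and hastens its breakdown, had the smallest p of these lists in OPCs. Its controls had 54.4, 41.5, 60.1 and 44.7 CPM and its SRF-KO OPCs 78.9, 106 and 88.3. All SRF-KO libraries lay above all controls, with means of 91.1 ± 13.9 (SD, n = 3) and 50.2 ± 8.60 (SD, n = 4) and a log2 difference of 0.87 (SE 0.14, edgeR p 7.43e-05, adjusted p 0.0701). DESeq2 called it (adjusted p 8.26e-05), where 1.04% of all genes were called, as did edgeR without the low-count filter (adjusted p 0.000541), where 0.466% were. Adjusted p ran up to 0.285 over the 12 alternatives.

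In OLs Pmaip1 had 6.69, 6.49, 5.50 and 7.04 CPM in controls and 16.1, 17.1, 23.2 and 3.76 in SRF-KO libraries. Replicate 4 was below every control and the other 3 above, and the log2 difference was 1.22 (SE 0.37, edgeR p 0.00670, adjusted p 0.237). Without replicate 4 it was called at 1.48 (edgeR adjusted p 0.000717), in a fit that called 4.12% of all genes. Over the 13 alternatives its adjusted p ran from 0.000717 to 0.599.

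Fas, the death receptor that activates caspase-8, had 9.99, 10.5, 9.11 and 5.75 CPM in control OPCs and 13.5, 20.8 and 18.1 in SRF-KO OPCs. The groups did not overlap, and the log2 difference was 0.98 (SE 0.23, edgeR p 0.00116, adjusted p 0.196). It was called by DESeq2 (adjusted p 0.0190) and by edgeR without the low-count filter (adjusted p 0.0269), and over the 12 alternatives adjusted p ran from 0.0190 to 0.410. In OLs Fas had 44.5 to 49.0 CPM in the controls and 56.7 to 76.9 with SRF-KO, again without overlap (log2 difference 0.44, edgeR p 0.00730, adjusted p 0.242). Casp8, the caspase that cuts BID, had 0.74, 2.19, 1.99 and 0.42 CPM in control OLs and 4.31, 4.38, 3.90 and 1.88 in SRF-KO OLs. Only SRF-KO replicate 4 lay within the control range, and the log2 difference was 1.55 (SE 0.46, edgeR p 0.00565, adjusted p 0.221). Without that replicate Casp8 was called at 1.73 (edgeR adjusted p 0.0379), in a fit that called 4.12% of all genes. Over the 13 alternatives its adjusted p ran from 0.0379 to 0.596.

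Of the other genes with the smallest p in each list, edgeR called none. In OPCs the log2 differences were -0.30 for Bok, a BAK relative, and -0.41 and -0.28 for the caspase inhibitors Birc6 and Xiap. In OLs the sign was the opposite for Xiap at 0.28 (edgeR adjusted p 0.480) and for Bok at 0.37 (adjusted p 0.687). Without SRF-KO OL replicate 4, Bok stood at -0.0016. Birc6 was again negative in OLs. The OPC differences of the partners Bag1 and Bag3 were -0.24 and -0.41. Bag3 had 14.3 CPM in SRF-KO replicate 2 against 31.4 and 27.7 in the other SRF-KO OPCs, and without that library its difference was -0.12 (edgeR p 0.361). Fbxw7, part of a ligase that marks MCL1 for degradation, stood at 0.34. In OLs they were 0.53 for Cycs, which encodes cytochrome c, 1.02 for Ngfr, the p75 neurotrophin receptor, and -0.47 for Tmbim6, a cell death inhibitor of the endoplasmic reticulum. Cycs had 124 CPM in SRF-KO replicate 4 against 80.8 to 87.8 in the other SRF-KO OLs. Without that library the Cycs difference was 0.34. Foxo1, from the list of regulators, had the smallest edgeR p of all these lists in OLs (p 0.00500, adjusted p 0.211). Its log2 difference was 0.46 (SE 0.13), and over the 13 alternatives adjusted p ran from 0.0591 to 0.573. Foxo1 levels there were 22.5 to 31.5 CPM without the knockout and 36.1 to 38.4 with it, so the groups did not overlap. Bax, the other main effector, stood at 0.20 in OPCs (edgeR adjusted p 0.453) and -0.08 in OLs (adjusted p 0.922), and is named outside the rule for its role.

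**Figure D5:**
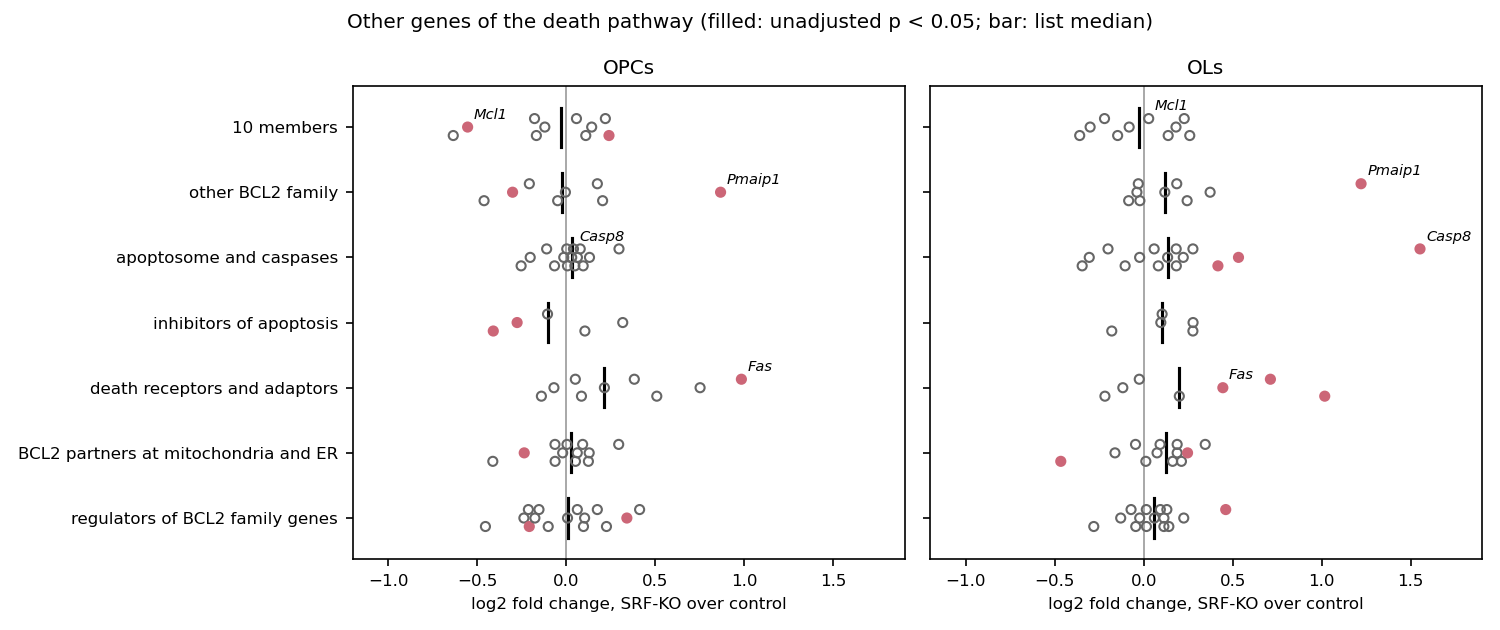
SRF-KO over control log2 differences (horizontal axis) of the 10 genes and of 6 lists of pathway genes in OPCs and OLs; points are genes, filled where the unadjusted p is below 0.05, and bars are list medians. Pmaip1 lies at 0.87 in OPCs and 1.22 in OLs, Fas at 0.98 and 0.44, and Casp8 at 0.04 and 1.55.

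The 8 OL markers, myelin genes among them, summed to 401 to 435 CPM in control OPCs, with Mog at 0, and to at least 18029 in control OLs. Sums of some cell type markers also differed between the groups. The summed CPM of 6 OPC markers was 5083 to 5541 in control and 3510 to 4786 in SRF-KO OPCs, and that of 8 OL markers was 18029 to 34774 in control OLs against 12850 to 17885 after SRF-KO. The sum of 6 astrocyte markers was 1042 to 1149 in control and 1298 to 1406 in SRF-KO OPCs, and 16553 to 34091 in control OLs against 8478 to 13488 after SRF-KO. In OPCs the 8 OL markers summed to 444 to 481 CPM after SRF-KO, above the controls, and 6 neuron markers to 445 to 493 against 509 to 577 in controls. In OPCs 0 of 6 OPC markers and 6 of 6 astrocyte markers had a log2 difference above 0. In OLs 0 of 8 OL markers and 1 of 6 astrocyte markers did. Among astrocyte markers in OLs, Gfap was highest (log2 CPM 13.7, the others at most 11.1), with a difference of -1.32 (edgeR p 0.000869, adjusted p 0.125). The others lay between -0.36 and 0.03, each at an edgeR p above 0.05. Among OL markers tested in OPCs, Cnp was highest (log2 CPM 8.67, the others at most 3.76), with a difference of 0.16. Within each stage the sums above did not overlap between groups, as 12.2% of single genes did not in OPCs and 8.06% in OLs. In OLs the sums of OPC markers did overlap (2269 to 3979 CPM in controls, 1874 to 2442 after SRF-KO). So did those of neuron markers there (274 to 295 and 277 to 312). The part of these markers' cell types in the levels of the BCL2 family was not tested. The sum of 7 microglia markers was at most 1.61 CPM in OPCs, with Cx3cr1, Aif1, Itgam, Tmem119 and C1qa at 0 in all OPC libraries, and 7.98 to 12.5 in OLs.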

How the data were processed

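Per the labels' protocols, polyA RNA of cultured OPCs (7 samples) and OLs (8 samples) went into unstranded Smart-seq2 libraries, read single-end. STAR and RSEM, with no version, and the builds GRCm38 and Rnor_6.0, with no role, are named in the submitters' processing notes; the IDs in the tables are mouse genes. The deposited tables hold RSEM expected counts (reads shared out among genes), TPM (counts per effective length on a fixed total) and FPKM; the deposited FPKM was not used. Groups follow the sample titles. Mesenchymal stem cells and Olig2-Cre appear in the text on the design but in no sample label.

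Rounded expected counts entered edgeR 4.0.16 under R 4.3.3 (filterByExpr, TMM, quasi-likelihood F-test, Benjamini-Hochberg over all genes, called below 0.05); a comparison within a stage used that stage's libraries and the interaction all 15. The SE is the absolute log2 difference divided by the square root of F. Alternatives were DESeq2 1.42.0, limma 3.58.1 on log2(TPM + 1), library totals, no low-count filter, a replicate block and leaving out each library. The test was checked on simulated counts. Coordinates come from GENCODE M21 on GRCm38 and promoters from RefSeq. No 2 libraries held identical values. The family members and lists were chosen with earlier results of these data known. Named pathway genes are the 2 smallest p of each list in each stage, and not all of them are printed.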

Additional observations from a re-analysis of the deposited data

Results flagged for a closer look

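In groups of 4 libraries, the highest or lowest was set against the rest by Dixon's ratio of its gap to the group's range, at its 95% critical value. Chance alone passes it in about 1 in 20 groups, and 3 of the 30 groups tested passed. Bcl2l2 passed in both OL groups, with a ratio of 0.913 for control OL replicate 3 (13.8 CPM, the others 10.3 to 10.6) and 0.911 for SRF-KO OL replicate 4 (13.4 CPM, the others 9.65 to 9.98). Bad passed in the SRF-KO OLs, with a ratio of 0.914 for replicate 4 (39.1 CPM, the others 20.0 to 21.6).

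The knockout difference of Srf itself differed between the stages: the OL difference minus the OPC difference was 3.68 on the log2 scale (SE 0.46, edgeR adjusted p 0.00465). With a replicate block it was 3.60 (edgeR adjusted p 0.0866), and over 19 alternatives adjusted p ran from 1.02e-05 to 0.0866. The SRF-KO OLs kept 36.6% of the control mean of Srf CPM and the SRF-KO OPCs 2.68%. The stages were counted in different ways, so these shares are not on the same measure.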

How the results depend on the processing

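No family gene was called under any alternative: of 250 alternative fits of the 10 genes within a stage, 232 kept the direction, 18 reversed it and 0 passed. In OPCs the number at an unadjusted p below 0.05 was 1 with DESeq2, without the low-count filter and with the replicate block, and 1 to 2 with a library left out. Pathway genes called in OPCs were 2 with DESeq2 and 2 without the filter, where 1.04% and 0.466% of all genes were called. In OLs the unadjusted number was 1 with limma and 0 to 1 with a library left out. Pathway genes called there were 0 to 3 with a library left out. The 3 were Pmaip1, Casp8 and Casp2 (named after its values were seen) without SRF-KO OL replicate 4. That fit called 4.12% of all genes. For the interaction the unadjusted number was 2 without the filter, 0 with the block and 0 to 3 with a library left out.

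Directions that turned all belonged to differences that were not called. With library totals, the OL log2 differences were 0.13 for Bcl2l2 and 0.075 for Bad, the interactions 0.063 for Bak1 and 0.20 for Bnip3, and the stage difference of Bad was -0.057. With limma on TPM they were -0.084 for Bcl2l11 in OPCs and, in OLs, 0.17 for Bcl2l2, 0.23 for Bad, 0.016 for Bmf and 0.029 for Akt2. With the replicate block they were 0.015 for Bcl2l2 in OPCs, -0.00299 for Mcl1 in OLs and -0.097 for the Bcl2l2 interaction. With each library left out, the OPC ranges were -0.32 to 0.0056 for Bak1, -0.28 to 0.0086 for Bcl2, -0.0070 to 0.11 for Bcl2l11, -0.40 to 0.052 for Bcl2l2 and -0.084 to 0.29 for Bid. The OL ranges were -0.21 to 0.016 for Bcl2l2, -0.0016 to 0.53 for Bok and -0.079 to 0.17 for Mcl1. The interaction ranges were -0.30 to 0.096 for Bak1, -0.13 to 0.30 for Bcl2l2, -0.14 to 0.27 for Bid and -0.13 to 0.091 for Bnip3. The cause was not tested.

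Same-numbered libraries did not deviate together (correlation across genes -0.016 to 0.049 in OPCs and -0.281 to 0.026 in OLs). Different-numbered libraries ran from -0.227 to 0.284 in OLs. With so few pairs, these correlations cannot decide whether the replicate number is a pairing. With that number as a block, Srf in OLs was -1.45 (edgeR adjusted p 0.193). The block took calls over all genes from 9 to 2 in OPCs, 45 to 5 in OLs and 18 to 0 for the interaction. Calls over all genes were 123 in OPCs, 289 in OLs and 167 for the interaction with DESeq2, and 101, 129 and 88 without the filter. They were 74 in OLs with library totals, and 5 in OPCs and 3 in OLs with limma. With a library left out they were 1 to 4 in OPCs, 7 to 636 in OLs and 4 to 134 for the interaction, the highest OL and interaction counts without SRF-KO OL replicate 4. Among the family genes depth limits Bak1 most, as 1 SRF-KO OL library held 4 counts. Of the pathway genes named, Ngfr held 4 to 10 counts per library and Casp8 6 to 25 in control OLs.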
